A study of Homo sapiens with 29 samples.

Results

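Accessible chromatin was compared between parental 22Rv1 cells given pladienolide B (PladB) at 10 nM and parental 22Rv1 cells given vehicle, dimethyl sulfoxide (DMSO) at 0.1%. The comparison rests on 6 of the 29 ATAC-seq libraries of the series, 3 per group, all from unmodified cells treated for 3 h. 22Rv1 is a human prostate carcinoma line that expresses the androgen receptor. ATAC-seq uses a transposase that inserts sequencing adapters where DNA is exposed. For every library there was a list of peaks, the stretches where insertions stood above the local background. Libraries of 4 other kinds served as a look-up. These were parental cells with PladB at 100 nM, with the stereoprobe WX-02-23 at 20 µM or with its stereoisomer WX-02-43 at 20 µM, and 22Rv1 cells with stable Y36C-PHF5A expression and a FOXA1 transgene, WT-FOXA1 or C258A-FOXA1, that doxycycline (Dox) induces. Where PladB was compared with DMSO in the engineered cells, they had been given Dox with DMSO or with PladB at 100 nM. Peaks were also looked up in WT-FOXA1 cells given DMSO without Dox. The same was done in both engineered lines given Dox with WX-02-23 at 20 µM.

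PladB is a macrolide of bacterial origin that binds the SF3b complex, the part of the U2 small nuclear ribonucleoprotein that recognises the branch point of an intron. SF3B1 and PHF5A form its binding pocket, and binding blocks an early step of spliceosome assembly. Splicing takes place largely while RNA polymerase II is still transcribing, and the processes are coupled. FOXA1, the pioneer factor that the series centres on, opens chromatin at prostate enhancers.

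All 6 lists together covered 121095 regions after overlapping or touching peaks were merged. A list held a region if any of its peaks covered 1 bp or more of it. Peaks at nearly all strong sites were held under both conditions, and the regions that differed in presence were weak ones. All 6 lists held 64287 regions, which are called shared here. A region was called gained when all 3 PladB lists and no DMSO list held it, and 501 regions met this rule. A region was called lost in the reverse case, which 687 regions met. Gained regions made up 0.414% and lost regions 0.567% of all regions. Each of the 6 libraries, when left out, moved both counts by more than 1.5 times, to between 850 and 1443 gained and between 1111 and 1755 lost regions, since fewer lists then had to match the rule. With peaks of an authors' fold of at least 6 only, the counts were 348 and 374, and with the 6 lists cut to equal length they were 573 and 567. In bulk libraries, fewer cells with an open site and less opening per cell cannot be told apart. The genes near these sites were not analysed here, and no cell type or lineage marker locus was looked up, because no annotation of the build of the files (hg19) was used.

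The lists were of similar depth and length. PladB lists held 98083, 90822 and 88818 peaks in replicates 1 to 3, and DMSO lists held 91632, 98193 and 93068. The longest PladB list and the longest DMSO list were of nearly the same length, and the groups overlapped. The mean difference, PladB minus DMSO, was -1723 peaks (SE 3448, exact two-sided permutation p = 0.5). The covered length was 37170 ± 2278 kb (SD, n = 3) with PladB and 38248 ± 1114 kb (SD, n = 3) with DMSO (exact two-sided permutation p = 0.4). Median peak width was 310, 312 and 305 bp with PladB and 313, 311 and 312 bp with DMSO (exact two-sided permutation p = 0.3). The background in reads per base, recovered from the fold column as a relative measure of depth, was 0.924, 0.843 and 1.016 with PladB and 0.881, 1.002 and 0.921 with DMSO (exact two-sided permutation p = 1.0). None of these 4 measures separated the groups, and the adjusted p was 0.667 or higher for each. With 3 against 3 libraries no p can fall below 0.1. The labels do not say whether replicates came from separate cultures, so these p-values measure the spread between libraries only. Leaving out DMSO replicate 2 or PladB replicate 3 turned the sign of the difference in peak number, to 224.3 and 154.8 peaks. Without PladB replicate 3 the difference in covered length was 19.4 kb in place of -1078 kb.

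Replicates of PladB were about as alike as replicates of DMSO. For any 2 lists, the bases in both were divided by the bases in at least 1 (the Jaccard index). Pairs of PladB lists gave 0.710 ± 0.006 (SD, 3 pairs), pairs of DMSO lists 0.716 ± 0.001 (SD, 3 pairs), and mixed pairs 0.707 ± 0.006 (SD, 9 pairs). The range between groups, 0.697 to 0.714, overlapped the range within PladB, 0.705 to 0.716, but lay below the range within DMSO, 0.715 to 0.717. These ranges were not tested, since pairs share lists.

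Most regions were open under both conditions. At least 1 list of each group held 93426 regions, or 77.2% of all. Only PladB lists held 12763 regions and only DMSO lists held 14906. Most of these were seen in a single library: 10115 regions were held by 1 PladB list alone and 11645 by 1 DMSO list alone. The number found in no other list ranged from 2490 in PladB replicate 3 to 5170 in DMSO replicate 2, the list with the most peaks. Of the 71754 regions held by all DMSO lists, 89.6% were held by all PladB lists. In the other direction, all DMSO lists held 91.6% of the 70184 regions that all PladB lists held.

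**Figure D1:**
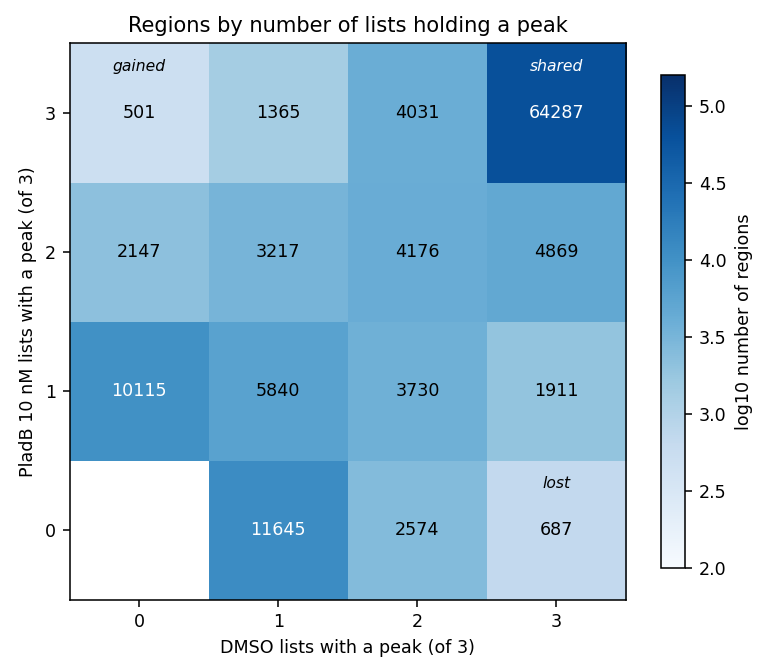
Number of merged regions by how many of the 3 DMSO lists (horizontal) and 3 PladB 10 nM lists (vertical) held a peak, with colour on a log10 scale. The corner of 64287 shared regions outweighs the corners of 501 gained and 687 lost regions.

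Differences in presence lay among the weak regions. The regions held by all DMSO lists were divided into 4 strength classes of equal size, 1 weakest and 4 strongest, by the mean rank of the authors' p-value within each list. In class 4, all 17939 regions were held by all PladB lists. In class 3, 17936 of 17938 were, and in class 2, 95.8% were. In class 1, 62.6% were held by all PladB lists, and 674 regions, or 3.76%, by none. The same division of the regions held by all PladB lists gave the same order. All 17546 regions of class 4 were held by every DMSO list. In class 1, 69.9% were held by every DMSO list and 475 regions, or 2.71%, by none.

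**Figure D2:**
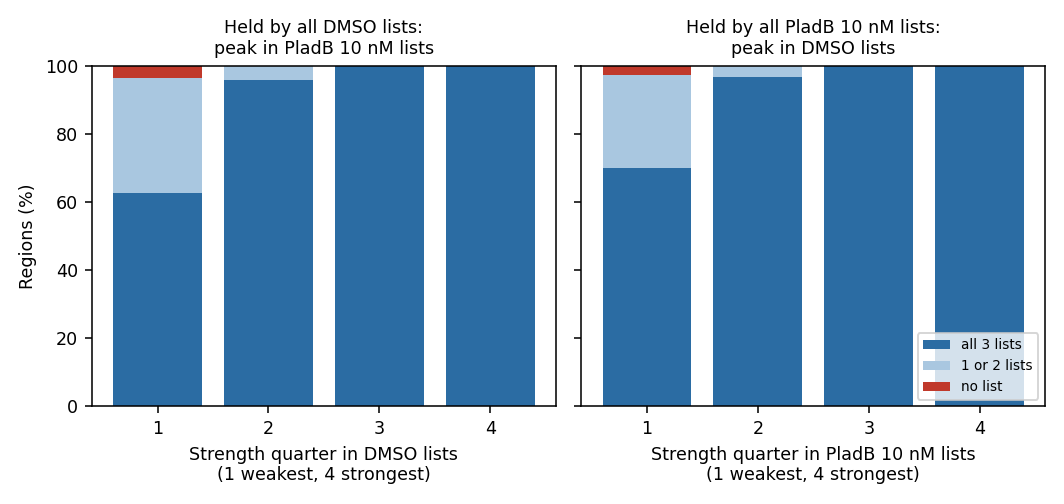
Share of regions (vertical axis, percent) with a peak in all 3, in 1 or 2, or in none of the lists of the other group, by strength class (horizontal axis, 1 weakest). Left, regions held by all DMSO lists; right, regions held by all PladB 10 nM lists. The share found in none is largest in class 1, 3.76% on the left and 2.71% on the right.

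Gained and lost regions were narrow and of low rank. Beside them were set the 6947 regions that 3 of the 6 lists held with both groups represented, called mixed here. The median width was 198 bp at gained, 202 bp at lost, 193 bp at mixed and 414 bp at shared regions. The narrowest peak in any list spanned 150 bp, so the medians of the members lay near the smallest width called. By the authors' p-value, the median percentile of a gained region within the PladB lists was 19.0, that of a lost region within the DMSO lists was 17.1, and that of a mixed region within the lists that held it was 16.7. Shared regions had a median percentile of 63.7. The median fold enrichment that the authors gave was 5.52 for gained, 5.25 for lost and 8.88 for shared regions. When percentiles were divided into 4 equal ranges, 368 gained regions fell in range 1 (lowest), 129 in range 2, 4 in range 3 and 0 in range 4. Of the lost regions, 532 fell in range 1, 154 in range 2, 1 in range 3 and 0 in range 4. These values describe the members and were not tested.

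Members were spread over the genome. The median gap to the nearest shared region was 10.5 kb for gained, 10.2 kb for lost, 11.7 kb for mixed and 10.7 kb for shared regions. A shared region lay within 1 kb of 105 gained regions (21.0%), of 116 lost regions (16.9%), and of 14.3% of mixed and 13.0% of shared regions. Within 100 kb of each other lay 13 pairs of neighbouring gained regions and 13 pairs of neighbouring lost regions. No such count was made for mixed or all regions. Both kinds occurred on every autosome and on X. By chromosome, the share of regions that were gained ran from 0.269% on chromosome 12 to 0.578% on chromosome 22, and the share lost from 0.439% on chromosome 12 to 0.822% on chromosome 11. On chromosome 11, 18 regions were gained and 49 lost, of 5961, and on chromosome 14, 11 were gained and 31 lost, of 3892. On chromosome 2 the counts were 39 gained and 37 lost, of 8215. These shares were not tested.

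The gained regions of highest rank were of moderate height. The region at chr16:27807336-27807647 ranked first, with an authors' fold enrichment of 9.60, 9.42 and 8.55 in PladB replicates 1 to 3 and no peak in any DMSO list. It was followed by chr1:220218906-220219151, with folds of 4.83, 5.55 and 4.53, and by chr22:44263763-44264035, with folds of 11.31, 8.68 and 8.43. Their mean percentiles in the PladB lists were 54.4 and 54.2, against 57.8 for the first. The chromosome 22 region had the highest fold of all gained regions, 9.48 on average. The region at chr12:77527383-77527663 had the smallest spread of the 8, with folds of 8.40, 8.64 and 8.46. The other 4 lay at chr15:48483102-48483588, chr17:46231080-46231297, chr1:45242016-45242398, and chr15:31178054-31178343. With peaks of an authors' fold of at least 6 only, both regions on chromosome 1 no longer differed between the groups. All coordinates are of build hg19.

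These 8 regions were open in other libraries of the series. All 3 parental WX-02-23 lists held 6 of the 8, and at least 1 held each of them. All 3 parental PladB 100 nM lists held 4, namely those on chromosome 16, on chromosome 12, at chr15:48483102-48483588 and on chromosome 17. The chromosome 22 region had no peak in any 100 nM list. No region of the 8 was held by all WX-02-43 lists, and 3 were held by none of them. Among engineered cells given DMSO, both lists held 6 of the 8 for WT-FOXA1 with Dox. Both lists held 4 for WT-FOXA1 not given Dox and 3 for C258A-FOXA1 with Dox. The sites so held were open there without PladB. Of all 501 gained regions, both lists of these groups held 87 (17.4%), 49 (9.78%) and 48 (9.58%), in the same order.

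The 8 lost regions of highest rank stood lower than the 8 gained ones, with overlap. Their mean percentiles in the DMSO lists ran from 41.7 to 51.7. Those of the 8 gained regions in the PladB lists ran from 47.2 to 57.8. The highest mean fold was 8.29 among the 8 lost regions and 9.48 among the 8 gained regions. These values were not tested. The region at chr2:203777164-203777332 ranked first, with folds of 5.33, 5.49 and 5.71 in DMSO replicates 1 to 3 and no peak in any PladB 10 nM list. With peaks of an authors' fold of at least 6 only, no list of either group held it. Of the WX-02-43 lists only replicate 2 held it, with a fold of 12.23. All 3 WX-02-23 lists held it, with folds of 5.21, 10.15 and 9.89. PladB 100 nM replicates 1 and 2 also held it, with folds of 4.87 and 5.38. The next lay at chr2:37871418-37871807, with folds of 9.04, 7.49 and 8.33, and at chr20:57022900-57023161, with folds of 8.51, 6.99 and 9.37. The remaining 5 lay at chr17:80325755-80326090, chr2:232578535-232579169, chr3:13035506-13036003, chr14:68287364-68287574, and chr2:181799715-181800271. At a fold of at least 6, the regions at chr2:232578535-232579169, on chromosome 3 and on chromosome 14 likewise no longer differed between the groups. No region of these 8 was held by all 3 PladB 100 nM lists, and 7 had a peak in 1 or 2 of them. All 3 WX-02-43 lists held 5 of the 8, and all 3 WX-02-23 lists held 3. The chromosome 14 region had no peak in any PladB 100 nM or WX-02-43 list.

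**Figure D3:**
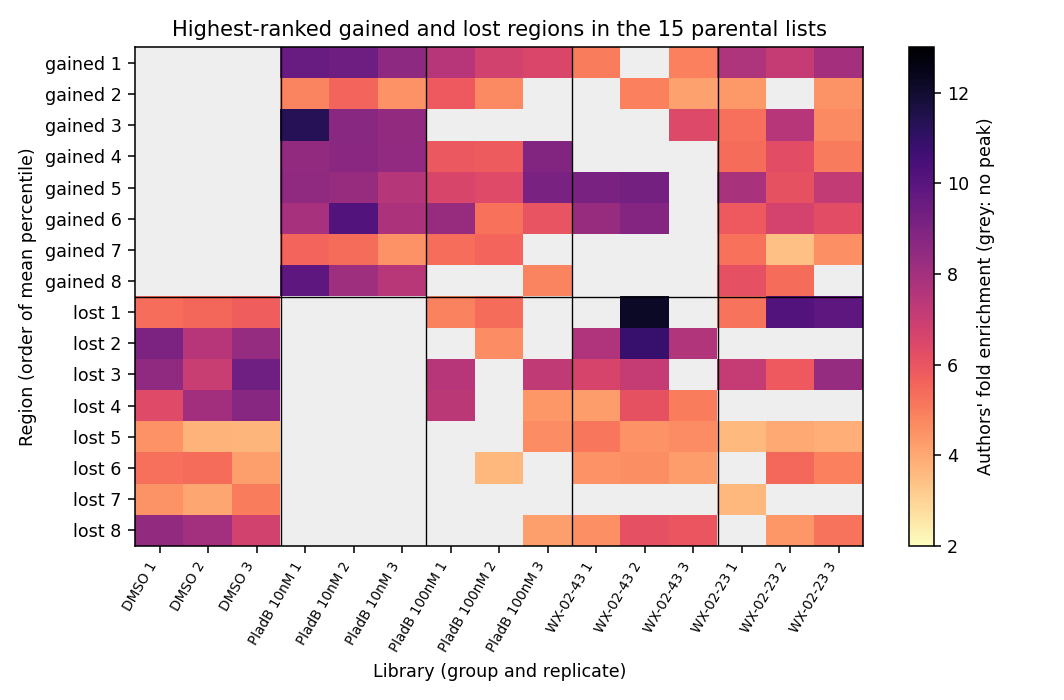
Authors' fold enrichment (colour; grey where a list had no peak) at the 8 gained and 8 lost regions of highest rank (rows) in the 15 parental libraries (columns). Grey blocks in the DMSO columns (upper) and PladB 10 nM columns (lower) follow from the choice of the regions. All 3 lists of PladB 100 nM held 4 of the upper 8 regions and none of the lower 8.

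Whether the members of each set behaved alike in libraries that did not choose them was asked next. At the gained regions, the share with a peak in the 3 PladB 100 nM lists was 33.9%, 39.3% and 42.3%. In the 3 WX-02-43 lists it was 39.7%, 48.5% and 29.1%, so the groups overlapped. The difference, PladB 100 nM minus WX-02-43, was -0.599 percentage points (SE 6.11, exact two-sided permutation p = 0.9). It was 1.70 points without PladB 100 nM replicate 1 and 4.09 points without WX-02-43 replicate 2. At the lost regions, 20.8%, 25.5% and 21.8% held a peak in the PladB 100 nM lists, against 61.0%, 66.5% and 39.6% in the WX-02-43 lists. Every 100 nM list lay below every WX-02-43 list. The difference was -33.0 points (SE 8.33, exact two-sided permutation p = 0.1, the smallest that 3 against 3 allow), and 0.2 after adjustment over the 2 comparisons. The DMSO lists, which helped to choose the regions, enter neither difference. The 95% Wilson bounds of a single share lay at most 4.38 points from it at gained and 3.74 points at lost regions, and they cover counting error only.

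These shares moved with list length. The PladB 100 nM lists held 82538 to 87426 peaks and the WX-02-43 lists 83748 to 98079. Replicate 3 of WX-02-43, the shortest list of its group, had the highest background of all, 1.502 reads per base. At the mixed regions the shares were 30.7% ± 4.0 (SD, n = 3) with PladB 100 nM and 46.9% ± 13.3 (SD, n = 3) with WX-02-43, so a lower share with 100 nM was not limited to the lost regions. When each list was cut to its 82538 strongest peaks, the spread between replicates shrank and the difference at the gained regions changed sign. These regions then held a peak in 33.9%, 33.1% and 39.7% of cases with PladB 100 nM and in 21.4%, 23.6% and 28.3% with WX-02-43. The groups no longer overlapped, and the difference was 11.2 points (exact two-sided permutation p = 0.1). At the lost regions the shares were 20.8%, 19.9% and 19.9% against 41.3%, 40.2% and 37.7%, a difference of -19.5 points (exact two-sided permutation p = 0.1). The mixed regions were at 27.8% ± 0.40 and 31.9% ± 1.6 (SD, n = 3 each), a difference of -4.09 points. At equal length, the 100 nM libraries held more of the gained and fewer of the lost regions than the WX-02-43 libraries did. They also held fewer of the mixed regions, 27.4% to 28.2% against 30.1% to 32.9%. Shared regions went the same way, 94.4% to 95.4% against 96.0% to 96.7%. A lower share was thus not limited to the lost regions at equal length either.

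The members were also counted by region in the lists as deposited. Of the 501 gained regions, 63 had a peak in all 3 PladB 100 nM lists and 153 in none. The WX-02-43 lists held 45 of them in all 3 and 136 in none, and the WX-02-23 lists held 119 in all 3 and 85 in none. Of the 687 lost regions, 355 had no peak in any 100 nM list and 23 had one in all 3, against 106 and 161 for WX-02-43 and 201 and 162 for WX-02-23. Gained regions were held throughout most often by WX-02-23, and lost regions least often by PladB 100 nM; these counts were not tested. A pattern of absence in all 3 lists with 100 nM and presence in all 6 stereoprobe lists was found at 25 lost regions. The reverse, presence in all 3 lists with 100 nM and absence from all 6 stereoprobe lists, was found at 0 of 501 gained regions. The 100 nM lists held fewer peaks on average, 84547 against 95673 with WX-02-23 and 92766 with WX-02-43. Shorter lists make absence more likely at any weak region. These patterns were not counted at mixed or all regions or at equal length, so they give no trait of the members.

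At equal length, the stereoprobe WX-02-23 overlapped PladB 100 nM at the gained regions. As deposited, WX-02-23 lists held 54.1% ± 4.3 (SD, n = 3) of the gained regions, each of them more than any 100 nM list. For 100 nM minus WX-02-23 the difference was -15.6 points at gained and -23.05 points at lost regions (exact two-sided permutation p = 0.1 each, unadjusted). With 9 lists of equal length the share was 37.3% ± 3.1 against 35.6% ± 3.6 with PladB 100 nM (SD, n = 3 each), a difference of -1.66 points for 100 nM minus WX-02-23 (exact two-sided permutation p = 0.8). At the lost regions the share with WX-02-23 was 30.0% ± 3.0 (SD, n = 3) at equal length. This lay between PladB 100 nM and WX-02-43, overlapped neither, and gave -9.75 points for 100 nM minus WX-02-23 (exact two-sided permutation p = 0.1). The contrast with WX-02-23 and the use of 9 lists of equal length were added after the data were seen.

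**Figure D4:**
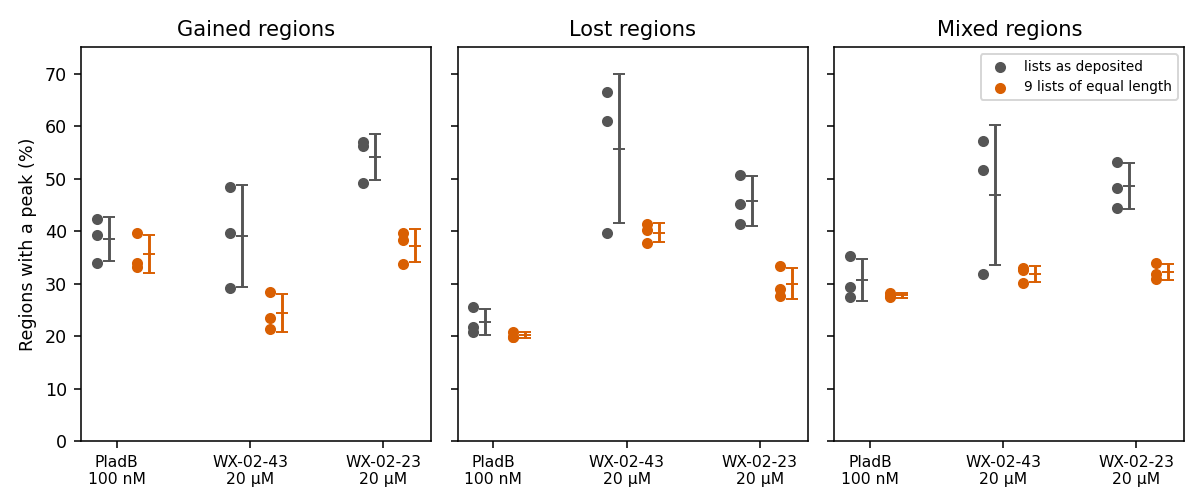
Percent of gained, lost and mixed regions with a peak in each parental library that did not choose them (points; bars are mean ± SD, n = 3), with lists as deposited (grey) and 9 lists of equal length (orange). At equal length, PladB 100 nM lay above WX-02-43 at gained regions (33.1% to 39.7% against 21.4% to 28.3%) and below it at lost regions (19.9% to 20.8% against 37.7% to 41.3%).

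The engineered lines carry Y36C-PHF5A, a form of the PladB-binding protein known to confer resistance to such ligands. In the WT-FOXA1 line, gained regions held a peak in 30.5% and 26.3% of cases with DMSO and in 16.0% and 29.1% with PladB at 100 nM. Lost regions held one in 26.1% and 25.9% with DMSO and in 16.3% and 28.2% with PladB. PladB replicate 1 of this line had a short list of 71121 peaks, and both differences changed sign without it, to 0.699 and 2.26 points. In the C258A-FOXA1 line, gained regions went from 18.0% and 23.4% with DMSO to 14.0% and 18.0% with PladB. Lost regions went from 23.9% and 24.3% to 16.2% and 19.2%, a difference of -6.40 points (SE 1.54). In the same lists the difference was -5.53 points at mixed and -4.27 points at shared regions, with no overlap between the groups in either, so lower shares with PladB were not limited to the lost regions. With the 4 lists of each line at equal length, PladB minus DMSO was 0.200 and -0.437 points at gained and lost regions of the WT-FOXA1 line, and 2.00 and -0.946 points in the C258A-FOXA1 line. There were 2 libraries per group, and none of these differences was tested. Whether they differ from those in parental cells was not tested, and the PladB dose, the line, Y36C-PHF5A and Dox all differ from the 10 nM comparison and cannot be told apart.

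Strength was compared among the 64287 shared regions, ranked within each list by the authors' p-value so that the 6 rankings had equal length. The ranks were turned into normal scores and fitted with limma, a linear model that draws the variance of each region toward a common value. No region was called stronger or weaker at an adjusted p below 0.05 (0.0% in either direction), and the smallest adjusted p in limma was 0.189. At an unadjusted p below 0.05, 2348 regions ranked higher (3.65%) and 2464 lower (3.83%) with PladB. The normal scores of the groups did not overlap at 4303 regions in the upward direction (6.69%) and 4294 in the downward direction (6.68%). A limma fit with a mean-variance trend and robust variances called 13 regions stronger and 8 weaker, with a smallest adjusted p of 0.0025.

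**Figure D5:**
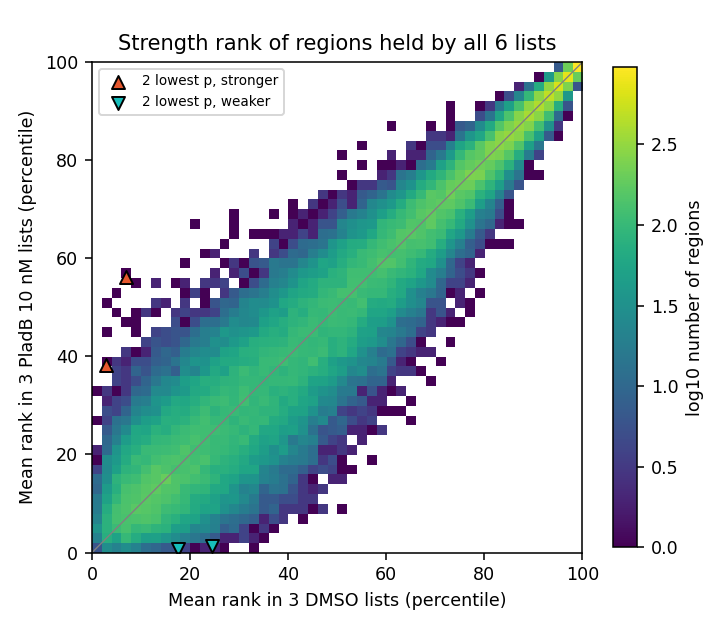
Mean rank (percentile by the authors' p-value) of the 64287 shared regions in the 3 DMSO lists (horizontal) and the 3 PladB 10 nM lists (vertical), with colour for the log10 number of regions per cell. Regions lie along the diagonal, most tightly at high rank. Triangles mark the 2 regions of lowest p in each direction, none of which passed the threshold.

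The lowest p for a higher rank belonged to chr5:176264609-176265005. It ranked at percentiles 56.8, 56.2 and 55.4 in PladB replicates 1 to 3 and at 7.48, 6.74 and 6.42 in DMSO replicates 1 to 3, with authors' folds of 10.34, 9.87 and 8.22 against 5.26, 5.33 and 5.19. All PladB lists lay far above all DMSO lists, a gap that the choice by lowest p favours. The difference in normal score was 1.64 (SE 0.125, limma adjusted p = 0.189), and the adjusted p was 0.0215 in the fit with a trend and robust variances. In the other direction, the limma adjusted p was 0.591 with replicate number as a block and 0.410 when ranked by fold. With 1 library left out it ran from 0.451 to 0.560, and on percentile ranks it was 0.0602. The next was at chr17:64344761-64345041, at percentiles 33.9, 34.1 and 46.8 with PladB and 1.96, 3.80 and 2.99 with DMSO (limma adjusted p = 0.321). All parental and engineered libraries held both regions. The lowest p for a lower rank was at chr2:171002150-171002724, at percentiles 0.802, 0.537 and 0.705 with PladB and 20.0, 19.0 and 13.6 with DMSO (limma adjusted p = 0.321). This region had a peak in 1 of 3 PladB 100 nM lists, in 1 of 3 WX-02-23 lists and in 3 of 3 WX-02-43 lists. The other was at chr12:25775137-25775411, at percentiles 1.07, 2.22 and 0.997 with PladB and 30.6, 21.3 and 21.6 with DMSO (limma adjusted p = 0.321).

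These ranks were also divided into 4 classes of equal size. A region stayed in 1 class in all 6 lists in 22846 cases (35.5%), spanned 2 neighbouring classes in 36062 (56.1%) and spanned more in 5379 (8.37%). The class was higher in every PladB list than in every DMSO list at 588 regions (0.915%) and lower at 667 (1.04%). Of these, 3 were higher and 0 lower by 2 or more classes. In the top class, 12026 regions stayed in all 6 lists, 74.8% of the size of that class. By the median class of each group, 14529 regions were in the top class under both conditions, 1364 moved up into it from class 3 with PladB, and 1334 moved from it to class 3.

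The shared regions that ranked higher or lower at an unadjusted p below 0.05 were followed into the other parental libraries. Ranks were taken over the 54916 regions held by all 15 parental lists, of which 1782 were in the higher and 1750 in the lower group. The mean percentile of the higher group was 40.7 ± 0.07 (SD, n = 3) with PladB 10 nM and 23.5 ± 0.30 (SD, n = 3) with DMSO, values that chose it. In libraries that did not choose it, the mean percentile was 34.9 ± 0.40 with PladB 100 nM, 34.5 ± 0.41 with WX-02-23 and 30.3 ± 0.44 with WX-02-43 (SD, n = 3 each). The lower group stood at 24.9 ± 0.14 with PladB 10 nM and 42.7 ± 0.16 with DMSO (SD, n = 3 each). It stood at 30.8 ± 0.45 with PladB 100 nM, 33.6 ± 0.40 with WX-02-23 and 37.3 ± 0.23 with WX-02-43 (SD, n = 3 each). In both groups the 3 libraries with 100 nM lay on the side of PladB 10 nM relative to all 3 libraries with WX-02-43. These means describe the regions and carry no test.

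The bases covered in each shared region had a median of 429, 419 and 390 bp in PladB replicates 1 to 3 and 430, 432 and 422 bp in DMSO replicates 1 to 3. The groups overlapped, and replicate 3 of PladB was the narrowest. After each list was centred on its median log2 width, limma called 0 regions wider and 0 narrower at an adjusted p below 0.05 (0.0% in either direction), with a smallest adjusted p of 0.0537. At an unadjusted p below 0.05, 2517 regions were wider (3.92%) and 1726 narrower (2.68%). The log2 widths of the groups did not overlap at 5766 regions in the wider direction (8.97%) and 2485 in the narrower direction (3.87%). Without centring this order turned, with 2837 regions apart in the wider and 4426 in the narrower direction, so no direction can be given for width as a whole.

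The regions of lowest p for width missed the threshold. They were chosen by p out of all shared regions, which favours close replicates and groups that do not overlap. The region at chr22:38667871-38668333 covered 432, 463 and 430 bp with PladB and 153, 150 and 154 bp with DMSO. All DMSO widths were at or near the smallest width called. The centred log2 difference was 1.59 (SE 0.085, limma adjusted p = 0.0537), and the adjusted p was 0.0296 without centring. By full span it was 0.0488, and among regions with exactly 1 peak in each list 0.0344. With replicate number as a block the limma adjusted p was 0.764, and with 1 library left out it ran from 0.225 to 0.399. The region at chr12:132196212-132196759 covered 493, 462 and 474 bp with PladB and 213, 206 and 203 bp with DMSO (limma adjusted p = 0.0693). In the other direction, the region at chr10:5237522-5238258 covered 170, 180 and 186 bp with PladB and 559, 571 and 523 bp with DMSO. Its centred log2 difference was -1.57 (SE 0.0998, limma adjusted p = 0.0693), and without centring its adjusted p was 0.0296. With replicate number as a block its limma adjusted p was 0.764, and with 1 library left out it ran from 0.244 to 0.410. The region at chr2:199523826-199524575 covered 210, 209 and 174 bp with PladB and 589, 541 and 640 bp with DMSO (limma adjusted p = 0.0696). The groups did not overlap at any of these 4 regions, and all 3 PladB 100 nM lists held a peak in each.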

How the data were processed

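Per the labels' protocols, an Active Motif ATAC-Seq kit was used. The submitters' processing notes name Bowtie2, MACS2 and hg19. How reads were filtered or shifted, and which tool versions ran, is not given here. The authors deposited 1 peak list per library, holding for each peak a ratio (fold enrichment), the −log10 of its p-value and q-value, and the summit position. The lowest deposited −log10 q lay at or just above 2 in every list. Read totals were not given. Relative depth (background reads per base) came from the even steps of the fold values (tolerance 0.0001, −log10 p within 0.01). In the 6 lists, 20.4% to 23.8% of peaks lay on such steps. The lowest summit among those peaks held 6 reads in each of the 6 lists, and summit reads of the other peaks were not recovered. Sites weaker than the threshold of a list were not detectable in it.

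Chromosomes 1 to 22, X and Y were used. Fold and p served only to rank or filter peaks within a list. Where lists were compared by rank, only regions held by all lists were ranked. Tests were exact two-sided permutation tests over libraries (Benjamini-Hochberg over 4 and over 2 comparisons) and limma 3.58.1 with Benjamini-Hochberg adjustment over all shared regions. The fits and the region counts were tested on simulated data, and merging was checked against bedtools 2.31.1.

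Named regions follow a rule: the 8 gained and 8 lost of highest mean percentile, and, since none passed, the 2 of lowest p in each direction for strength and width. The comparison, rules and tests were chosen with earlier results of these data known. Motifs, promoters and gene lists were planned but not analysed here, since no hg19 genome or annotation was used. Alternatives covered thresholds, overlap, list length, centring, ranking, the block and each library left out. Tools were R 4.3.3 and Python 3.11.15 with scipy 1.17.1, pandas 2.3.3, numpy 2.4.6 and matplotlib 3.10.9.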

Additional observations from a re-analysis of the deposited data

How the results depend on the processing

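Peaks give presence above each library's detection limit, so a weak site can be open without a peak. Of 158 values under alternatives for 15 main results, 124 kept their direction, call or approximate count, 23 moved and 11 reversed. A kept direction says nothing of size. With WX-02-23 as the reference group, -0.599 points at the gained regions became -15.6 points, which counts among the 124. The sign-flip values of the replicate block repeat the main difference, so they could not move.

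Gained and lost regions numbered 348 and 374 with a fold of at least 6, and 573 and 567 with lists of equal length, where the excess of lost regions was gone. Allowing 1 library to go against the pattern gave 4013 and 5172. Leaving out 1 library gave 850 to 1443 gained and 1111 to 1755 lost regions; fewer lists then need to agree. The difference in peak number ranged from -4478 to 224.3, in covered length from -2254 to 19.4 kb and in median width from -4.5 to -1.0 bp. limma called 1 region wider and 1 narrower without centring, 1 and 2 by full span, 1 wider among regions with exactly 1 peak in each list, and 13 stronger and 8 weaker with a trend and robust variances; the cause was not tested. Leaving out a library gave 0 calls each time, with a smallest limma adjusted p of 0.225 for width and 0.406 for strength. Fewer libraries make a call harder to reach, so these counts of 0 say little, though they are among the values kept.

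For PladB 100 nM minus WX-02-43, gained regions turned to 11.2 points with lists of equal length, both within the 6 lists compared and over 9, and ranged from -5.59 to 4.09 with 1 library left out; lost regions ranged from -41.0 to -27.6. At equal length the engineered differences were 0.200 (WT-FOXA1, gained), 2.00 (C258A-FOXA1, gained) and -0.946 points (C258A-FOXA1, lost). With 1 library left out they ranged from -12.5 to 0.699 and -9.68 to 2.26 (WT-FOXA1, gained and lost) and from -7.39 to -2.0 and -7.93 to -4.88 (C258A-FOXA1).

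Deviations of same-numbered libraries in region width and strength rank correlated at -0.013 to 0.013. A correlation over regions cannot show a shift shared by all regions of a library. Whether same-numbered libraries share a culture or day was not tested. With the replicate block, limma called 0 regions for width and for strength, as it did without the block. The difference in peak number stayed at -1723 (exact sign-flip p = 0.75). The lost-region difference stayed at -33.0 points (exact sign-flip p = 0.25). The block cannot move either difference, and with 3 pairs no sign-flip p can fall below 0.25. These 2 sign-flip tests therefore could not have made or changed a call.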
